A study of Homo sapiens with 6 samples.

Results

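The genes described here were CDK5RAP2 and 9 other genes whose products build or organize the centrosome: PCNT, AKAP9, CEP192, CEP152, PLK4, NEDD1, TUBG1, TUBGCP2 and TUBGCP3. They were chosen by name, and all 10 were found among the 56303 genes of the deposited count table. All 10 passed the filter on low counts, which left 21005 genes for testing.

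The centrosome is the main microtubule-organizing center of an animal cell. It consists of a pair of centrioles and the pericentriolar material around them, a layer of large coiled-coil proteins that docks γ-tubulin ring complexes, the templates from which microtubules grow. CDK5RAP2 is such a scaffold protein: it binds and activates γ-tubulin ring complexes, and loss of its function in the germ line causes primary microcephaly. Epithelial cancer cells often carry extra or enlarged centrosomes.

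RNA was sequenced from SW480 cells, a line established from a human colorectal adenocarcinoma. One group expressed a control short hairpin RNA that silences no gene (shCtrl, n = 3), and the other a hairpin directed at MORC2 (shMORC2, n = 3), a nuclear ATPase of the microrchidia family. Hairpins were delivered by lentivirus into the parental line, and stably infected cells of both groups were selected with puromycin and described as clonal, so that 1 control line and 1 hairpin against MORC2 stand for the conditions. The labels number the 3 libraries of a group as replicates, and the study describes them as independent replicate experiments. The p-values measure the spread between these experiments on the same lines.

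Libraries held 42092664 to 43434425 counts. Pairs within a group that held replicate 1 differed more (chi-square over genes of 17.3 to 23.9 per degree of freedom) than the pairs of replicates 2 and 3 (9.18 in shCtrl and 6.83 in shMORC2). Epithelial keratins marked all libraries, with KRT8 at means of 15380 and 15071 CPM, that is, counts scaled to a common library size, in shCtrl and shMORC2, and among intestinal markers VIL1 was at 676 and 654 CPM. Levels of CDH17 and LGALS4 were low, with group means of at most 1.08 CPM. The other 2 intestinal markers were called higher in shMORC2, KRT20 (9.49 to 15.9 CPM, log2 fold change 0.75) and CDX2 (15.2 to 21.2 CPM, 0.47). The CDX2 values of the 2 groups overlapped. Of the 9 epithelial markers tested, 22.2% were called higher and 0 lower, beside 19.9% and 19.6% of all genes tested. LGALS4 was too low to be tested, at means of 0.290 CPM in shCtrl and 0.0545 CPM in shMORC2. Fewer than 1 CPM was found in every library for 4 of 6 fibroblast, 5 of 6 leukocyte and 2 of 4 endothelial markers. The summed level of the fibroblast list ran from 18.4 to 19.4 CPM in shCtrl and from 20.8 to 22.9 in shMORC2, that of the leukocyte list from 8.46 to 9.20 and from 9.18 to 10.4, and that of the endothelial list from 15.7 to 19.6 and from 20.6 to 22.3. MORC2 itself was at 46.1, 46.4 and 48.8 CPM in shCtrl replicates 1 to 3 and at 35.03, 29.3 and 27.2 CPM in shMORC2 replicates 1 to 3, with a log2 fold change of -0.63 (edgeR adjusted p 0.000216, SE 0.10). RBM39, the splicing factor that the study paired with MORC2, had a log2 fold change of -0.27 (edgeR adjusted p 0.0143, SE 0.08).

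To learn how the centrosome organizers responded to knockdown of MORC2, their levels in 3 shMORC2 and 3 shCtrl libraries were compared. CEP152, AKAP9, CEP192 and TUBGCP3 were lower in shMORC2, at 51.5% to 72.2% of the control level, and TUBG1 was higher, at 137% of it. CDK5RAP2, PCNT, PLK4, NEDD1 and TUBGCP2 did not pass the test. A call required an adjusted p below 0.05 from the quasi-likelihood test of edgeR, with Benjamini-Hochberg adjustment over all 21005 genes. By that rule 5 of the 10 members were called, beside 39.5% of all genes tested. Lower calls made up 4 of 10 members against 19.6% of all genes, and higher calls 1 of 10 against 19.9%. With so few members and so high a background, these shares are a description. The median log2 fold change was -0.23 over the members and -0.01 over all genes tested. In 6 members, CDK5RAP2 and the 5 called ones, the 3 values of one group did not overlap those of the other, which held for 50.2% of all genes. Of those 6, 5 were lower and 1 higher in shMORC2, each direction taking 25.1% of all genes. Requiring in addition a log2 fold change of at least 0.5 in size left 3 of 10 members (AKAP9, CEP192 and CEP152), against 22.4% of all genes. Without both libraries numbered 1, which stood apart from the others of their groups, 7 of 10 members were called, and 43.8% of all genes tested in that fit. These are bulk RNA levels, in which fewer cells expressing a gene and less RNA per cell cannot be told apart.

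**Figure D1:**
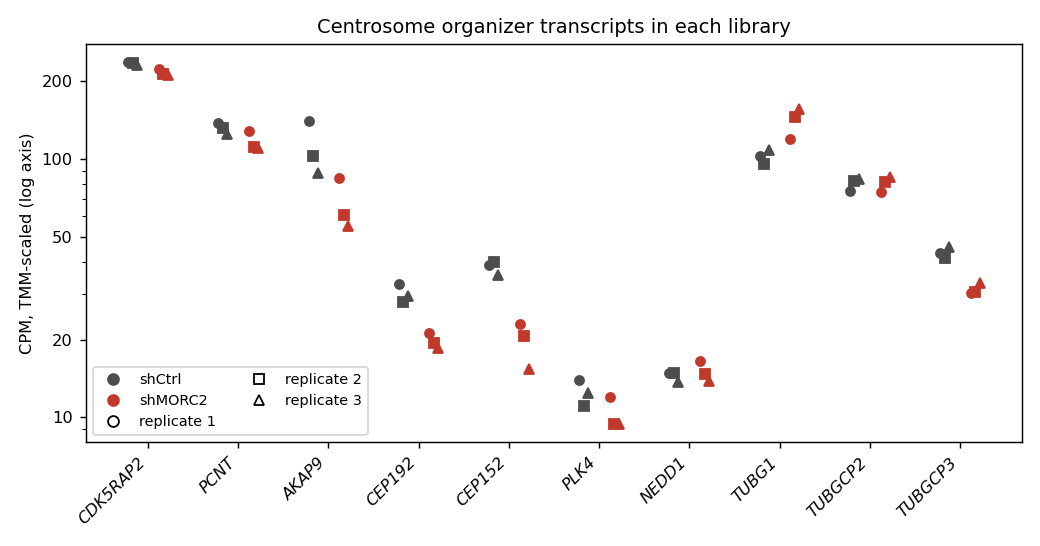
Level of each of the 10 transcripts in CPM (log axis) in the 6 libraries, with shCtrl in grey, shMORC2 in red and the replicate number as the symbol. The 2 groups separate for CEP152, CEP192, TUBGCP3, AKAP9, TUBG1 and CDK5RAP2 and overlap for PCNT, PLK4, NEDD1 and TUBGCP2.

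**Figure D2:**
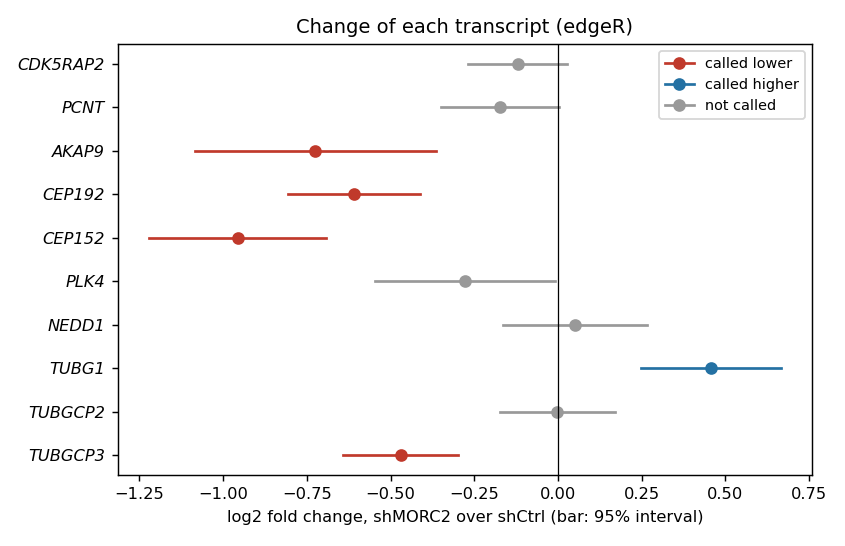
Log2 fold change (shMORC2 over shCtrl) of each member from edgeR, with bars for the 95% interval. CEP152 lay lowest at -0.96 and TUBG1 highest at 0.46, and the intervals of CDK5RAP2, PCNT, NEDD1 and TUBGCP2 held 0. The intervals are not adjusted for the number of genes. That of PLK4 (-0.55 to -0.009) left out 0, though PLK4 was not called (edgeR adjusted p 0.0936).

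CDK5RAP2 (chromosome 9, 120388869 to 120580170, minus strand, GRCh38) was the most abundant member by CPM and the steadiest within groups. It stood at 237, 234 and 231 CPM in shCtrl replicates 1 to 3 and at 222, 213 and 211 CPM in shMORC2 replicates 1 to 3. Every shMORC2 value lay under every shCtrl value, but the gap between the nearest libraries was small beside the levels themselves. The log2 fold change was -0.12 (SE 0.07, 95% interval -0.27 to 0.03, edgeR adjusted p 0.184). The total CDK5RAP2 transcript therefore did not pass the test, and the interval leaves room for a loss of up to 0.27 on the log2 scale. With the replicate number as a block the adjusted p was 0.0712, the lowest of the 14 alternatives tried, and in none of them was CDK5RAP2 called.

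The study followed a short form of CDK5RAP2 that lacks an exon, and the deposited splicing table lists this exon. It is exon 32 of the 38 of the canonical transcript (GENCODE v44), at 120407012 to 120407248 on chromosome 9 of GRCh38, wholly coding and 237 bases long. It is printed below in capitals with the last 20 bases of the intron before it and the first 10 bases of the intron after it in lower case, because it is the sequence that sets the long and the short form apart.

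CDK5RAP2 exon 32, chr9:120407002-120407268, minus strand: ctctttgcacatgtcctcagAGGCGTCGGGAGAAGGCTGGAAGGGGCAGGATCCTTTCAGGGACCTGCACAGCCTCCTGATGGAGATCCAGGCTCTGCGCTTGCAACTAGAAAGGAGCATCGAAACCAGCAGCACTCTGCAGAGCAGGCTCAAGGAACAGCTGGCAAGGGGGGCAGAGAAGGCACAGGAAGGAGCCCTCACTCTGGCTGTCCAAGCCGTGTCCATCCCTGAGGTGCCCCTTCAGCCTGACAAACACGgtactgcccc

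The exon holds 79 codons' worth of bases, and skipping it keeps the reading frame, with 0 internal stop codons in the coding sequence of either form (1893 and 1814 codons). It begins 83.2% of the way through the coding sequence. Its GC content of 60.3% ranks it 2nd of the 36 internal exons of the transcript, whose median is 46.2%, and its length ranks 4th, against a median of 127 bases. The introns on its 2 sides measure 1098 bases upstream and 2898 bases downstream, and the splice sites read AG and GT.

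The splicing table calls its 2 groups of 3 libraries group 1 and group 2, without saying which was shMORC2. No knockdown direction is therefore given for any splicing value here, and differences are group 1 minus group 2. An inclusion level is the share of transcripts that keep the exon, from 0 to 1, estimated from reads that support keeping or skipping it, each divided by the length of the form they come from. For the CDK5RAP2 exon it was 0.861, 0.820 and 0.925 in the libraries of group 1 and 0.784, 0.772 and 0.736 in those of group 2. All 3 levels of group 1 lay above all 3 of group 2, with means of 0.869 ± 0.0532 and 0.764 ± 0.025 (SD, n = 3 each) and a difference of 0.105. The two-sided exact permutation test gave p = 0.1, the smallest that 3 against 3 libraries allow, so no difference could pass 0.05. The events were listed by the authors from these same libraries, and the separation of the groups is no independent evidence.

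The long form was the major one in every library. Reads on this exon and its junctions numbered 135 to 204 a library, and the exon ranked 33rd of 853 listed skipped exons by the reads of its least covered library. By the size of its difference it ranked 817th of 853, near the end of the list, whose median size was 0.199. The list held no difference under 0.0996 in size, so this exon lay just above its lower end. Skipping reads numbered 11, 13 and 5 in group 1 and 12, 14 and 16 in group 2, or 5.14% and 9.88% of the summed reads. Without the correction for form length the difference was 0.0474, and with 1 library left out it ran from 0.0765 to 0.129.

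PCNT and AKAP9 are large scaffold proteins that share a centrosome-targeting domain at the C-terminus. Pericentrin anchors γ-tubulin complexes and CDK5RAP2 in the pericentriolar material, and AKAP9 recruits γ-tubulin complexes and protein kinase A to the centrosome and the Golgi apparatus. PCNT (chromosome 21, 46324122 to 46445769, plus strand) was at 137.5, 132 and 125 CPM in shCtrl and at 128, 112 and 109.7 CPM in shMORC2 replicates 1 to 3. The groups overlapped through shMORC2 replicate 1, which exceeded shCtrl replicate 3. The log2 fold change was -0.17 (edgeR adjusted p 0.108, SE 0.08). PCNT was called lower with the replicate number as a block (adjusted p 0.0134, where 49.0% of all genes were called), without shMORC2 replicate 1 (0.0214, with 39.2% of genes called) and without both libraries numbered 1 (0.0186).

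AKAP9 (chromosome 7, 91940867 to 92110673, plus strand) was at 141, 102 and 88.1 CPM in shCtrl replicates 1 to 3 and at 84.5, 60.8 and 55.0 CPM in shMORC2 replicates 1 to 3. Replicate 1 was the highest in both groups, and the highest shMORC2 library lay just under the lowest shCtrl library. The mean fell from 110.3 ± 27.1 to 66.7 ± 15.6 CPM (SD, n = 3 each), a log2 fold change of -0.72 (edgeR adjusted p 0.00396, SE 0.17). AKAP9 thus had the widest spread of the members, and it was called in all 14 alternatives, at log2 fold changes from -0.93 to -0.51 and adjusted p from 1.26e-14 to 0.0348.

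AKAP9 and PCNT each had a listed skipped exon, which made 3 of 10 members with an event. Of all genes tested, 5.62% had an event of any kind and 3.5% had a skipped exon. The study picked CDK5RAP2 for its exon with events from these same libraries among its evidence, so its place in this count is not independent. With so few members the count is a description. The AKAP9 exon is exon 19 of 50, at 92042046 to 92042186 on chromosome 7, and is shown as above since its difference was the largest of the 3.

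AKAP9 exon 19, chr7:92042026-92042196, plus strand: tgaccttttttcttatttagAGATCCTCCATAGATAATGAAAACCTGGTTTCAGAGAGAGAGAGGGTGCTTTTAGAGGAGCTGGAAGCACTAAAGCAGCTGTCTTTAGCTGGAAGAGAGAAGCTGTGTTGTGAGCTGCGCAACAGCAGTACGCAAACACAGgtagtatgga

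This exon has 141 bases (47 codons), starts 41.95% of the way through the coding sequence, and like the CDK5RAP2 exon keeps the frame when skipped, with 3907 codons in the long form and 3860 in the short one. Its GC content of 47.5% ranks 3rd of 48 internal exons, whose median is 39.2%. The inclusion level was 0.423, 0.490 and 0.275 in group 1 and 0.725, 0.801 and 0.701 in group 2. The groups stood far apart, with the highest library of group 1 under the lowest of group 2. Means were 0.396 ± 0.110 and 0.743 ± 0.0523 (SD, n = 3 each), a difference of -0.35 (two-sided exact permutation p = 0.1). The sign is opposite to that of the CDK5RAP2 exon. Reads numbered 18 to 91 a library, so the 95% Wilson interval of a single library was wide, from 0.272 to 0.712 in group 1 library 2. Such intervals cover counting error only. With 1 library left out the difference ran from -0.39 to -0.29, and without the length correction it was -0.29.

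The PCNT event is exon 33 of 47 (chromosome 21, 46425831 to 46425971), which also has 141 bases and keeps the frame. Its inclusion level was 1.0, 0.742 and 0.896 in group 1, with 0, 4 and 1 skipping reads, and 1.0 in each library of group 2, with 0 skipping reads of 63. Group 1 had 5 skipping reads of 66, of which 4 came from library 2. With pooled reads taken as independent, 0 in 63 allows up to 4.76% of reads to be skipping ones. That bound has no correction for form length and leaves out the spread between libraries. The groups overlapped, and the exact permutation p was 0.4. Reads numbered 14 to 28 a library. All 3 exons were multiples of 3 in length, as were 48.5% of the 853 listed skipped exons.

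**Figure D3:**
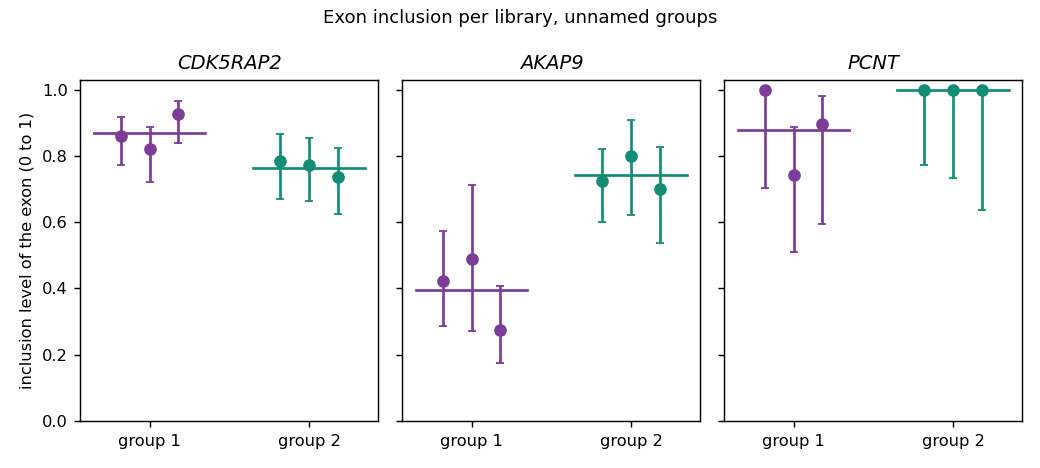
Inclusion level (0 to 1) of the listed exons of CDK5RAP2, AKAP9 and PCNT in each library of the 2 unnamed groups, with 95% Wilson intervals of the reads as thin bars and group means as lines. The groups lay apart for CDK5RAP2 (means 0.869 and 0.764) and AKAP9 (0.396 and 0.743) and overlapped for PCNT.

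The next members act in building new centrioles and maturing centrosomes. CEP192 and CEP152 recruit the kinase PLK4, which licenses the assembly of 1 new centriole beside each parent, and CEP192 also gathers pericentriolar material before mitosis. CEP152 (chromosome 15, 48712928 to 48811146, minus strand) changed most. It was at 38.9, 40.0 and 35.6 CPM in shCtrl replicates 1 to 3 and at 22.9, 20.7 and 15.4 CPM in shMORC2 replicates 1 to 3. The mean fell from 38.1 ± 2.30 to 19.6 ± 3.88 CPM (SD, n = 3 each), to 51.5% of the control level, with a log2 fold change of -0.96 (edgeR adjusted p 5.82e-05, SE 0.12). Its exons share 148 and 186 bases with RP11-485O10.2 and RP11-485O10.3 on the other strand. Whether counting used the strand is not given in the sources used here.

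CEP192 (chromosome 18, 12991362 to 13125052, plus strand) was at 32.9, 28.0 and 29.5 CPM in shCtrl and at 21.2, 19.3 and 18.6 CPM in shMORC2 replicates 1 to 3. The groups were separate, and the log2 fold change was -0.61 (edgeR adjusted p 0.000199, SE 0.09). PLK4 (chromosome 4, 127880861 to 127899195, plus strand), the kinase that both recruit, was at 14.0, 11.1 and 12.4 CPM in shCtrl and at 11.9, 9.46 and 9.44 CPM in shMORC2. It was the least abundant member, with 394 to 612 counts a library, and its groups overlapped. The log2 fold change of PLK4 was -0.28 (edgeR adjusted p 0.0936, SE 0.12). As for PCNT, the call depended on the fit, and PLK4 was called lower in 3 of the 14 alternatives. These were the edgeR fits without shMORC2 replicate 1 (adjusted p 0.0165), with the replicate number as a block (0.0167) and without both libraries numbered 1 (0.0364).

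The last 4 members are γ-tubulin and its partners. TUBG1 encodes the main γ-tubulin, TUBGCP2 and TUBGCP3 the partners with which it forms the γ-tubulin small complex, and NEDD1 the adaptor that carries ring complexes to centrosomes and spindles. TUBG1 (chromosome 17, 42609676 to 42615234, plus strand) was the member that rose. It was at 102, 95.5 and 108 CPM in shCtrl and at 119.6, 145 and 156 CPM in shMORC2 replicates 1 to 3. Every shMORC2 library exceeded every shCtrl library, with means of 102 ± 6.45 and 140.2 ± 18.7 CPM (SD, n = 3 each) and a log2 fold change of 0.46 (edgeR adjusted p 0.00228, SE 0.10).

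TUBG2, the second human γ-tubulin gene, went the other way, from 17.9, 20.7 and 19.4 CPM in shCtrl to 10.4, 13.1 and 11.2 CPM in shMORC2 (log2 fold change -0.74, edgeR adjusted p 0.000151, SE 0.11). TUBG1 and TUBG2 share 94.7% of their coding bases, and 20.4% of the 75-base windows of TUBG1 also occur in TUBG2, so the split of reads between them is uncertain. Summed per length, the pair stood at 50.2, 47.3 and 50.8 RPKM in shCtrl and at 54.5, 63.6 and 67.9 RPKM in shMORC2. TUBG2 made up 13.2% to 15.9% of that sum in shCtrl and 5.86% to 7.30% in shMORC2. The exons of TUBG1 also share 139 bases with FAM134C on the other strand.

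TUBGCP3 (chromosome 13, 112485005 to 112588167, minus strand) was at 43.1, 41.3 and 45.6 CPM in shCtrl and at 30.3, 30.6 and 33.0 CPM in shMORC2 replicates 1 to 3. The groups were far apart beside their spread, and the log2 fold change was -0.47 (edgeR adjusted p 0.000482, SE 0.08). Of its 75-base windows, 4.68% recur in another gene, so a small part of its reads is uncertain. TUBGCP2 (chromosome 10, 133278630 to 133312337, minus strand), its partner in the small complex, stood at 80.3 ± 4.49 and 80.2 ± 5.25 CPM in shCtrl and shMORC2 (SD, n = 3 each). Its log2 fold change had a 95% interval from -0.17 to 0.17 (edgeR adjusted p 0.990), so a change beyond 0.17 on the log2 scale lay outside the interval. The exons of TUBGCP2 share 896 bases with ZNF511 on the other strand. NEDD1 (chromosome 12, 96907223 to 96953777, plus strand) was at 14.5 ± 0.691 and 15.03 ± 1.39 CPM (SD, n = 3 each), with a 95% interval of its log2 fold change from -0.16 to 0.27 (edgeR adjusted p 0.715).

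Per length, in the RPKM that the authors deposited, the order of the members in shCtrl was TUBG1 (mean 42.4), CDK5RAP2 (23.3), PCNT (11.3), TUBGCP2 (10.5), TUBGCP3 (6.19), AKAP9 (6.09), CEP152 (4.68), NEDD1 (3.26), CEP192 (3.05) and PLK4 (2.79). Neighbours whose ranges over 3 libraries overlapped were PCNT and TUBGCP2, TUBGCP3 and AKAP9, AKAP9 and CEP152, NEDD1 and CEP192, and CEP192 and PLK4. TUBG1 and CDK5RAP2 also led in shMORC2, at mean levels of 57.8 and 21.3 RPKM. There TUBGCP2 (10.4) overlapped PCNT (9.97), and the last places went to CEP152 (2.40), PLK4 (2.29) and CEP192 (1.99), each overlapping the next. CEP152 thus moved from above NEDD1 to below it, its 3 values in shMORC2 (up to 2.86 RPKM) lying under those of NEDD1 (from 3.07 RPKM).

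Changes varied with the exon length of a gene. Over genes averaging 100 counts or more, the median log2 fold change was 0.12 in those with under 2000 exonic bases and -0.15 in those with at least 10000, and lower calls went from 16.1% to 38.1%. Many members are long: AKAP9 has 18210 exonic bases in the deposited table, PCNT 11660 and CDK5RAP2 10080. CDK5RAP2 and PCNT lay close to the median of their length class, at 0.03 above and 0.02 below it on the log2 scale. The called members stood well away from theirs, with differences of -0.85 for CEP152, -0.57 for AKAP9, -0.51 for CEP192, -0.39 for TUBGCP3 and 0.42 for TUBG1. The part of length in these changes was not tested.

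**Figure D4:**
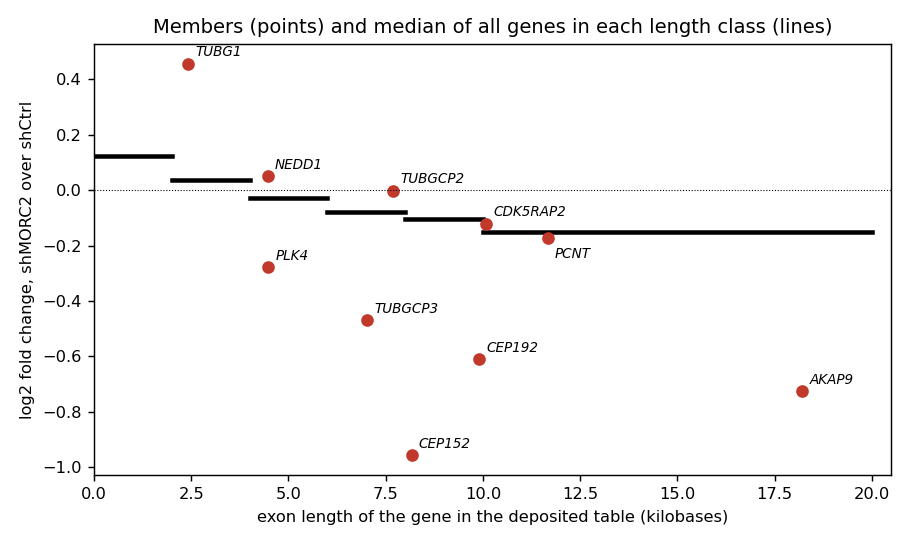
Log2 fold change (shMORC2 over shCtrl) against exon length in kilobases, with the 10 members as points and the median of all genes in each of 6 length classes as lines (the last class, from 10 kilobases, is drawn to 20). The class median went from 0.12 to -0.15, and CDK5RAP2 and PCNT lay close to it while CEP152, AKAP9, CEP192 and TUBGCP3 lay under it and TUBG1 above it.

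Another 83 centrosome genes in 6 groups were counted next to set the members beside their pathway, and all were tested. Of these, 41 (49.4%) were called, 30 lower (36.1%) and 11 higher (13.3%), beside 39.5%, 19.6% and 19.9% of all genes tested. The median log2 fold change was -0.14. The genes called lower had a median exon length of 6921 bases and those called higher 4149 bases. After the median of the length class was subtracted, the median over the 83 genes was -0.05, and 46 of 83 lay below their class.

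Among 7 other genes of the γ-tubulin ring complex, 4 were lower (57.1%) and 1 higher (14.3%), beside 19.6% and 19.9% of all genes tested. With 7 to 20 genes a group, these shares and those of the groups below are a description. MZT1, a small protein needed to activate ring complexes, rose from 10.4 ± 0.192 to 17.9 ± 0.494 CPM (SD, n = 3 each), a log2 fold change of 0.78 (edgeR adjusted p 2.87e-05, SE 0.09). MZT2A fell by 0.58 on the log2 scale (edgeR adjusted p 0.000111, SE 0.08), and TUBG2 by 0.74 as given above. MZT2A has a near-identical copy, MZT2B, so reads may be shared between them. Of 8 augmin genes, whose complex nucleates new microtubules along spindle microtubules, 3 were lower (37.5%) and 0 higher. HAUS5 and HAUS6 had log2 fold changes of -0.50 and -0.45 (edgeR adjusted p 0.00101 and 0.00462). HAUS3 was the third at -0.35.

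Of 20 centriole assembly genes, 7 were lower and 2 higher. The 2 that rose were centrins, calcium-binding proteins of the centriole lumen: CETN2 went from 31.6 ± 3.59 to 61.9 ± 2.91 CPM (SD, n = 3 each; log2 fold change 0.97, edgeR adjusted p 5.10e-06, SE 0.09), and CETN3 had a log2 fold change of 0.65 (SE 0.10). CEP295, which converts new centrioles to centrosomes, and SASS6, which forms the cartwheel that seeds them, were lowest at -0.57 and -0.47 (edgeR adjusted p 0.00309 and 0.0245). Of 18 genes of the pericentriolar material and satellites, 5 were lower (27.8%) and 2 higher (11.1%). MAPRE1, which encodes the microtubule plus-end protein EB1, and BBS4 rose by 0.54 and 0.31, and CEP290 and CEP55 had log2 fold changes of -0.69 and -0.46.

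Of 15 genes of the linker between centrioles and of their appendages, 6 were lower and 3 higher. CNTRL (centriolin) and CROCC (rootletin) were lowest at -0.69 and -0.43, and SCLT1 and FBF1 of the distal appendages highest at 0.52 and 0.32. CROCC has closely related copies, so its reads may be shared. Of 15 kinases and regulators of the centrosome cycle, 5 were lower and 3 higher. CDK5, the kinase whose regulatory subunit gave CDK5RAP2 its name, rose from 17.1 ± 1.07 to 41.8 ± 2.27 CPM (SD, n = 3 each), a log2 fold change of 1.29 (edgeR adjusted p 3.67e-07, SE 0.09), the largest among the 83 genes in size. Within this group PLK2 came next at 0.80, and the lowest called genes were NEK7 at -0.76 and BORA at -0.42.

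**Figure D5:**
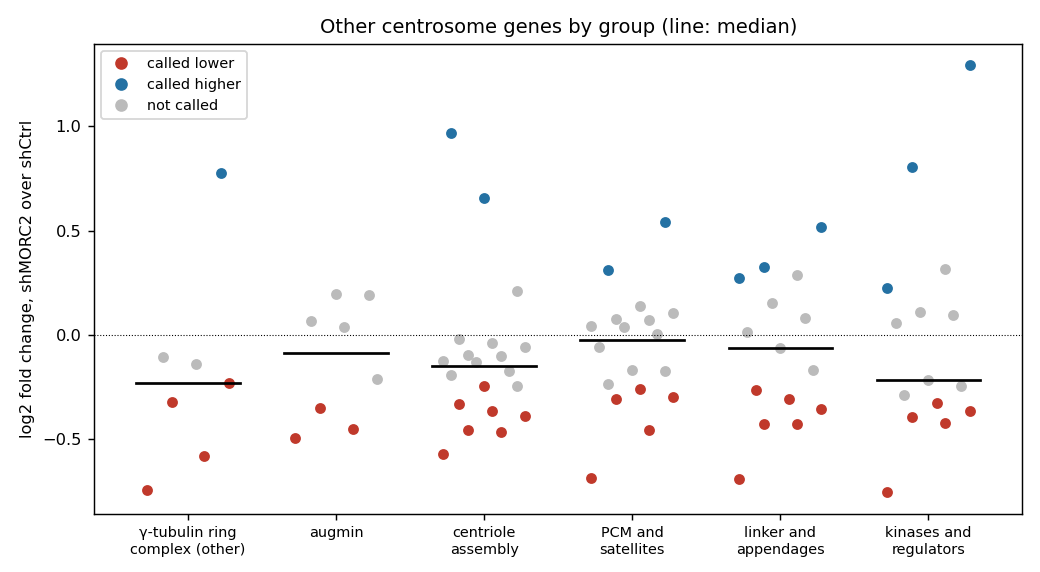
Log2 fold change (shMORC2 over shCtrl) of 83 other centrosome genes in 6 groups, 1 point a gene, coloured by call, with the median of a group as a line. Medians lay between -0.23 and -0.03, and CDK5 at 1.29 and CETN2 at 0.97 stood highest.

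Of 12 markers of proliferation, 2 were higher (CDK1 at 0.50 and CCNB1 at 0.24) and 1 lower (CCNA2 at -0.30), with a median of 0.17. That is 16.7% higher and 8.33% lower, beside 19.9% and 19.6% of all genes tested. Of 4 genes attributed to CDK5RAP2 as transcriptional targets, 3 were lower, beside 19.6% of all genes tested. These were CENPA at -0.84, SNAI2 at -0.87 and MAD2L1 at -0.55 (edgeR adjusted p 0.000172, 0.000401 and 0.00252). BUB1B had a log2 fold change of 0.12 (edgeR adjusted p 0.345). The study itself followed SNAI2, in SW480 among other cells, so its place in this list is not independent evidence. All 4 genes were named after their values were seen. Whether CDK5RAP2 had a part in these changes was not tested.

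The wider genes whose log2 CPM ran most like that of CDK5RAP2 over the 6 libraries were CEP295 (Pearson r = 0.980), CNTRL (0.974) and NEK7 (0.974). All 3 were called lower in shMORC2 by more than CDK5RAP2, and the correlations are given as a description over 6 libraries that include this group difference.

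Of the 83 wider genes, 7 had a listed splicing event, beside 5.62% of all genes tested. These were mutually exclusive exons in NEK6, CKAP5 and NIN (group 1 minus group 2: -0.11, 0.11 and -0.28), skipped exons in CEP170 (-0.12), POC1B (-0.10) and CEP131 (0.14), an alternative 5′ splice site in CEP131 (-0.13) and an alternative 3′ splice site in ODF2 (-0.12). A skipped exon of CENPA differed by -0.14. The groups overlapped for POC1B only among these 9 events, and the smallest exact permutation p, 0.1, was reached by the other 8.

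Promoters of the 10 members (RefSeq, GRCh38.p14, 250 bases before to 50 after the start, both strands) were searched for 5 motifs of cell-cycle and housekeeping promoters. CCAAT was found in 5 members (PCNT, CEP192, CEP152, PLK4 and TUBG1) and in 39.7% of all genes, and TTTGAA, the cell-cycle homology region, in 5 (CDK5RAP2, AKAP9, CEP192, CEP152 and PLK4) and in 18.2% of all genes. The E2F motif TTCCCGC was found in 5 members (AKAP9, CEP192, CEP152, NEDD1 and TUBGCP2), against 7.82% of all genes. CEP192 and CEP152, both called lower, held all 3. TUBGCP3, also called lower, held none of the 5 motifs. Members that were not called (CDK5RAP2, PCNT, PLK4, NEDD1 and TUBGCP2) each held at least 1 of the 3. Whether the motifs go with the calls was not tested. The ETS motif CCGGAAGT occurred in NEDD1, against 4.95% of all genes, and the NRF1 motif in PLK4, against 1.52%. A match is a description of the letters and not a site of binding.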

How the data were processed

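RNA of SW480 cells (3 shCtrl and 3 shMORC2 libraries) was sequenced from stranded libraries of polyadenylated RNA with molecular identifiers. The authors deposited raw counts per gene symbol, RPKM computed from them, and a splicing table made with rMATS. The submitters' processing notes name Trimmomatic 0.36, STAR 2.5.3a, Subread 1.5.1, featureCounts, edgeR 3.12.1 and GRCh38. The splicing table as deposited holds reads and inclusion levels for 3 libraries of each of 2 unnamed groups. It also holds the authors' differences, p-values and adjusted p-values, which were not used, nor was their summary of event numbers. Gene tables had 0 columns of other samples.

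The count test used R 4.3.3 and edgeR 4.0.16, with filterByExpr, TMM factors, a quasi-likelihood fit on the group alone and Benjamini-Hochberg adjustment over 21005 genes. CPM used TMM-scaled library sizes. SE was the size of the log2 fold change divided by the square root of F. Inclusion levels were recomputed from the reads and lay within 0.0005 of the deposited ones. Canonical exons came from GENCODE v44, and overlaps between genes from the exon coordinates deposited with the counts. Promoters came from RefSeq (10 of 10 members matched), and shared sequence from windows of 75 bases of the canonical transcripts.

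The members and all gene lists were chosen with earlier results of these data known. The text names the members, MORC2 and RBM39, the 2 highest and 2 lowest called genes of each wider group, the 3 wider genes most correlated with CDK5RAP2, and all listed events of these genes. HAUS3, BUB1B, MAD2L1, CENPA, SNAI2 and the proliferation markers were named beyond that rule, after their values were seen.

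Depth was 42092664 to 43434425 counts a library. Deviations from the group means correlated between same-numbered libraries (at 0.333, 0.165 and 0.149). Of the other pairings, shCtrl replicate 3 with shMORC2 replicate 2 reached 0.121 and shCtrl replicate 2 with shMORC2 replicate 3 reached 0.0247. The rest were negative. Replicate 1 stood apart in both groups and deviations within a group balance out, so these values do not settle how replicates 2 and 3 pair. The numbers were taken to pair the libraries in the replicate block only, on the values alone. Alternatives were DESeq2 1.42.0, no TMM, 2 other filters, the replicate block, limma 3.58.1 on log2 RPKM with a pseudocount of 1 or 0.1 (mean RPKM of 1 or more), leaving out each library and, chosen after seeing the data, leaving out both libraries numbered 1 and subtracting the median of the length class.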

Additional observations from a re-analysis of the deposited data

How the results depend on the processing

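The 5 called members stayed called, in the same direction, in each of the 14 fits tried (DESeq2, no TMM, other filters, limma, the replicate block and omitted libraries). The count of called members was 7 with the replicate block, through PCNT and PLK4, and 5 to 7 with 1 library left out, the 7 without shMORC2 replicate 1. It was 3 with a log2 fold change of at least 0.5 required. The replicate block changed no other call among the members. The wider count of 41 ran from 28 to 45 with 1 library left out and was 32 with limma at either pseudocount. It was 49 with the replicate block and 47 without both libraries numbered 1. The share of all genes called moved as well, from 39.5% in the main fit to 49.0% and 43.8% in these 2 fits. Without shMORC2 replicate 1, which gave the 45, it was 39.2%. Of the 2 members near 0, TUBGCP2 turned from -0.0015 to 0.0002 with DESeq2, 0.016 without shCtrl replicate 2, 0.029 without shCtrl replicate 3, 0.051 without shMORC2 replicate 1 and 0.0051 without both libraries numbered 1. NEDD1 turned from 0.05 to -0.022 and -0.0037 in the last 2 of these. With 1 library left out TUBGCP2 ran from -0.049 to 0.051 and NEDD1 from -0.022 to 0.11. The cause was not tested.

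Of the 3 listed events of the members, 1 (AKAP9) kept a difference of at least 0.1 without the length correction, and 1 (CDK5RAP2) had at least 20 reads in every library. With 1 library left out, 2 to 3 events kept that size. The authors' adjusted p as a threshold was not run, since those columns hold the authors' own comparison. The PCNT and AKAP9 exons had the fewest reads, 14 and 18 in their least covered libraries.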
